A study of Mus musculus with 9 samples.

Results

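A set of 10 genes of the circadian clock was read out of the deposited gene table, namely Clock, Npas2, Per1, Per2, Per3, Cry1, Cry2, Nr1d1, Nr1d2 and Dbp. They were found by gene symbol, and all 10 of the 10 symbols listed were present among the 32671 genes of the table. Every library was whole-lung poly(A) RNA of wild-type C57BL/6 mice, labelled day 21. The control group (3 libraries) had received saline. The bleomycin group (3 libraries) had received bleomycin, a DNA-damaging drug that is widely used to induce lung fibrosis in mice. The LNP group (3 libraries) had received bleomycin, as the series design states, and then inhaled lipid nanoparticles named mCas9/gSting@DOPS LNPs, which the title of the series describes as aimed at macrophages and the STING pathway. No group with nanoparticles lacking the guide, or with nanoparticles and no bleomycin, was analysed here. The labels do not say that the libraries of a group came from separate animals, so the tests below measure the spread between these libraries. The labels give the day of collection and not the hour, so a part of that hour in any difference below was not tested.

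The circadian clock is a transcriptional feedback loop present in nearly every cell, including those of the lung. CLOCK or its paralogue NPAS2 pairs with BMAL1 and activates genes through E-box sequences, among them the Per and Cry genes, whose protein products enter the nucleus and repress that pair. In another loop the nuclear receptors REV-ERB alpha (Nr1d1) and REV-ERB beta (Nr1d2) repress Bmal1, Npas2 and Clock, while DBP carries the rhythm to output genes through D-box sequences. As a consequence the transcripts of Nr1d1, Dbp and Per3 peak at a different time of day from those of Bmal1 and Npas2 in most peripheral tissues, and Per1 is in addition induced by glucocorticoids and by growth factor signals.

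The DNA just before the start of these genes shows where such sequences lie. Of the 10 genes, 9 had at least 1 entry in the promoter table of RefSeq (build GRCm38.p6). The 250 bases before each start were searched on both strands. The letters searched were the E-box CACGTG, its variant CACGTT, the D-box TTATGTAA and the cyclic AMP response element TGACGTCA. The letters AGGTCA, which are only a part of the REV-ERB and ROR element, were searched as well. The bases beside AGGTCA were not part of the search, so a match is not shown to be a full element. Among 32817 promoters of the same length, 6.02% held the E-box, 3.85% the variant, 0.817% the D-box, 14.0% the letters AGGTCA and 1.55% the cyclic AMP element. The following 4 are shown because they carry the motifs of the main loop, of the gene with the clearest difference below (Nr1d1) and of the only D-box matches. Each is written 5′ to 3′ on the strand of the gene, with the motif matches in capitals.
Nr1d1 (chr11:98775378-98775627, minus strand): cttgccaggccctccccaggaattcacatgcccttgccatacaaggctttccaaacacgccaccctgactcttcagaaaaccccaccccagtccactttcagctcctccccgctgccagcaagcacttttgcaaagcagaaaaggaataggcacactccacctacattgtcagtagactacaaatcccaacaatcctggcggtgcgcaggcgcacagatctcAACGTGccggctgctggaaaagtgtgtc
Cry1 (chr10:85185055-85185304, minus strand): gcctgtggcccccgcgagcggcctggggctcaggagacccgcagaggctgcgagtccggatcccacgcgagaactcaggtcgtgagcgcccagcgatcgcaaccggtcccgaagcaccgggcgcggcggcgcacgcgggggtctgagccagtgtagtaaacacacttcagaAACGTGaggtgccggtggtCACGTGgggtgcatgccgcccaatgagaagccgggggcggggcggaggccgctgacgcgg
Per1, the first of its entries (chr11:69098699-69098948, plus strand): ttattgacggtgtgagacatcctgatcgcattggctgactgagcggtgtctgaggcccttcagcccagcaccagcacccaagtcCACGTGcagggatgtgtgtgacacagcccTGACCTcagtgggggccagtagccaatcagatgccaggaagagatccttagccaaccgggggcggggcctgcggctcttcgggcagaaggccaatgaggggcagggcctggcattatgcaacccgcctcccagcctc
Per3 (chr4:151044666-151044915, minus strand): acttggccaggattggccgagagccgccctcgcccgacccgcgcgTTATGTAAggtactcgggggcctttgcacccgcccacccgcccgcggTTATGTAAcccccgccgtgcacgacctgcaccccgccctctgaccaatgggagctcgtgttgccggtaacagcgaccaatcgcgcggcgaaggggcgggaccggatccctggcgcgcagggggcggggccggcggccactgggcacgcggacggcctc
The capitals in Nr1d1 are the E-box variant, read on the opposite strand, 28 bases before the start. Cry1 held the variant 79 bases and the E-box 60 bases before its start. Per1 held the E-box 166 bases and AGGTCA, read on the opposite strand, 137 bases before its start. Per3 held the D-box at 2 places, and the first of them lay 205 bases before its start. Of the promoters not shown, Cry2 held the variant, and Nr1d2 and 1 of the 3 Clock entries held AGGTCA. No searched motif lay in these windows of Dbp or Npas2, which describes these letters in this window only.

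The 9 libraries held 56047830 to 69404903 counts, and 20794 genes passed the filter on low counts, all 10 clock genes among them. The labelled tissue matched its markers, since 12 alveolar epithelial markers, led by Sftpc and Sftpb, summed to between 10567 and 37468 CPM (counts scaled to a library size of 1000000) in every library. The guide is named for Sting1, which was at 18.4 to 23.9 CPM in control, 40.5 to 53.8 CPM in bleomycin and 44.3 to 62.0 CPM in LNP libraries, and a count over the whole gene does not measure an edit. Some libraries stood apart from their group. LNP replicate 3 held 10 skeletal muscle markers at a sum of 8538 CPM, led by Acta1 and Ckm, against 8.70 to 57.8 CPM in the other libraries. Its 16 glucocorticoid response genes summed to 4379 CPM, inside the range of 4259 to 6446 CPM of the bleomycin libraries, while LNP replicates 1 and 2 stood at 1226 and 1278 CPM. Control replicate 2 was at least 2-fold below both other control libraries in 526 of 12399 genes with a mean of at least 5 CPM, against 18 and 24 such genes for control replicates 1 and 3. This count was set up after the low Clock value of that library was seen, and Clock is among the 526. It covers low values in the control group only. Results that rest on these libraries are therefore given with and without them.

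In bleomycin lungs 3 clock genes were lower than in control lungs, namely Nr1d1, Npas2 and Dbp, by 4.50-fold, 3.30-fold and 5.13-fold. No clock gene was called higher in bleomycin in this fit, where Cry1 and Per1 stood 2.01-fold and 2.02-fold above control (adjusted p = 0.0734 and 0.106). Clock, Per2, Per3, Cry2 and Nr1d2 did not pass the test. None of the 10 passed between LNP and bleomycin or between LNP and control. A gene was called where the quasi-likelihood F test of edgeR, fitted on all 9 libraries, gave a Benjamini-Hochberg adjusted p under 0.05 over all genes tested.

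These counts are read against all genes. Between bleomycin and control, 18.5% of the genes tested were called lower and 15.2% higher, and the CPM of the groups did not overlap for 55.5% of genes, so 3 of 10 lower and 5 of 10 not overlapping are not a result about clock genes as a set. Between LNP and bleomycin 4.28% of genes were called higher and 1.87% lower, and 29.9% did not overlap, while 5 clock genes did not overlap (Nr1d1 and Npas2 higher in LNP, Cry1, Nr1d2 and Clock lower). Between LNP and control 4.95% were called higher and 3.08% lower, and 28.8% did not overlap, against 0 clock genes. Under edgeR at an unadjusted p under 0.05, 5 clock genes passed between bleomycin and control (44.8% of all genes), of which 2, Cry1 and Per1, were higher, 3 between LNP and bleomycin (25.1%) and 2 between LNP and control (24.0%). Under DESeq2 the counts were 5 (34.5% of all genes), 2 (14.8%) and 1 (13.2%), and under limma on log2(FPKM + 1) they were 2 (40.6% of all genes), 0 (8.49%) and 0 (11.9%). Without LNP replicate 3 the edgeR counts were 6 (42.6% of all genes), 4 (24.7%) and 2 (10.9%). The median log2 fold change of the 10 genes was -0.16 between bleomycin and control (all genes -0.05), -0.37 between LNP and bleomycin (all genes 0.04) and -0.65 between LNP and control (all genes -0.00284). These 3 comparisons share libraries with each other, so their values are given side by side and not as separate evidence.

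**Figure D1:**
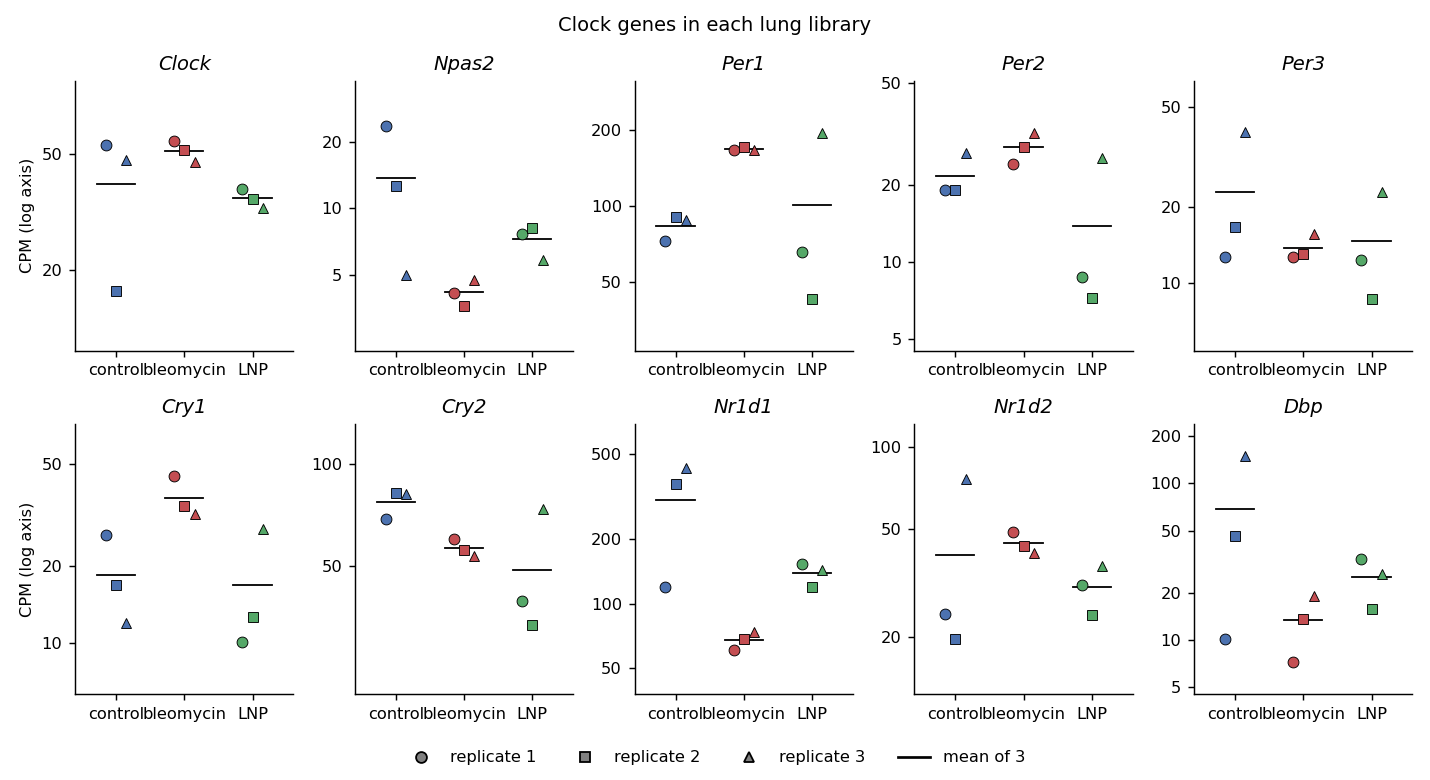
CPM of each clock gene on a log axis, with 1 point per library (circle, square and triangle for replicates 1, 2 and 3) and a bar at the mean of the 3 libraries of a group. The 3 bleomycin libraries lie close together for most genes, the control libraries are wide apart for Dbp, Npas2, Nr1d1 and Nr1d2, and LNP replicate 3 lies above the other LNP libraries for Per1, Per2, Per3, Cry1 and Cry2.

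**Figure D2:**
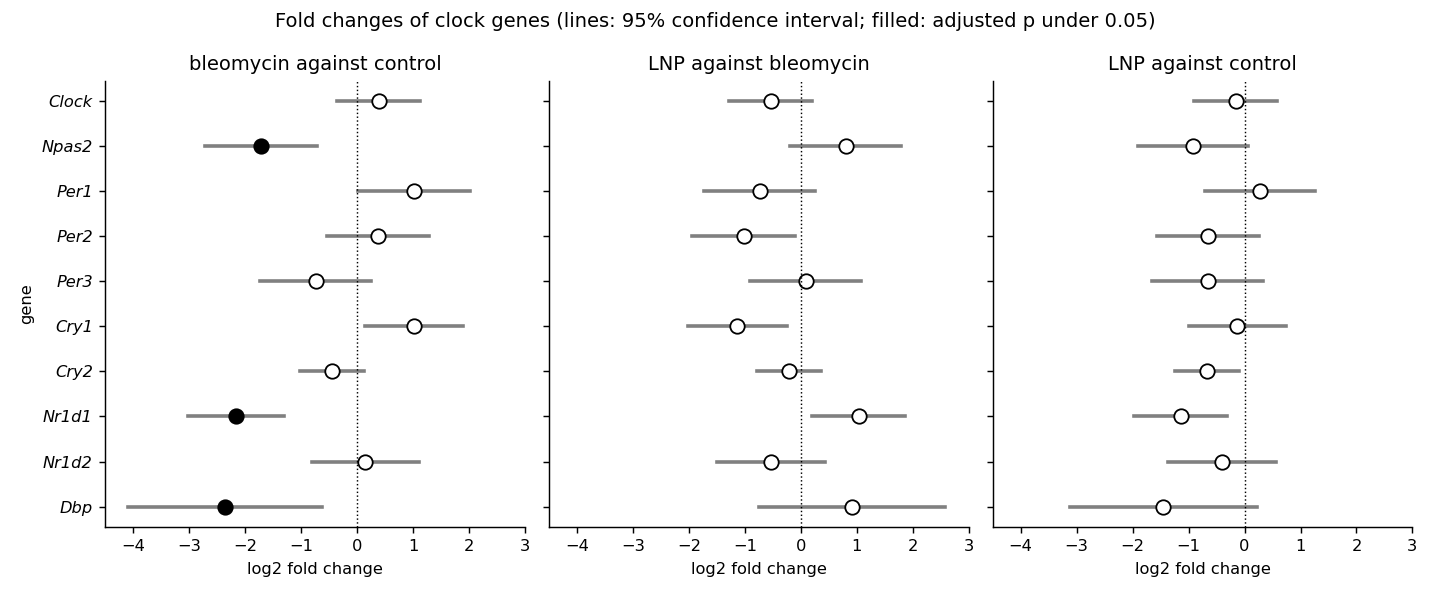
Log2 fold change of each clock gene in the 3 comparisons (edgeR fit on 9 libraries), with lines for the 95% confidence interval and filled points for an adjusted p under 0.05. Filled points are Npas2, Nr1d1 and Dbp in bleomycin against control, and no other point is filled.

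The levels per transcript length placed Nr1d1 first. In the control libraries the authors' FPKM (fragments scaled by transcript length and library size) averaged 91.1 ± 49.5 (SD, n = 3) for Nr1d1, 21.3 ± 23.0 for Dbp, 13.7 ± 1.41 for Per1 and 11.3 ± 1.01 for Cry2. Below these came Nr1d2 at 6.91 ± 5.59, Cry1 at 5.06 ± 2.10, Per2 at 3.39 ± 0.773, Clock at 2.67 ± 1.38, Npas2 at 2.63 ± 1.83 and Per3 at 2.23 ± 1.47. Neighbours in this order differed by less than the larger of their SDs, except for Nr1d1 and Dbp and for Per1 and Cry2. In the bleomycin libraries Per1 stood first at 26.3 ± 1.34 FPKM, above Nr1d1 at 19.4 ± 2.79, and Npas2 stood last at 0.759 ± 0.120. In the LNP libraries Nr1d1 was again first at 42.9 ± 5.11 FPKM, and Npas2 and Per3 were the lowest at 1.43 ± 0.259 and 1.44 ± 0.721.

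Among the activators, Npas2 passed the test between bleomycin and control only, and Clock passed in no comparison of this fit. Npas2, which stands in for CLOCK as the partner of BMAL1, was at 23.5, 12.6 and 4.99 CPM in controls, 4.13, 3.62 and 4.70 CPM in bleomycin and 7.66, 8.12 and 5.84 CPM in LNP. Every control library was above every bleomycin library, but control replicate 3 lay only just above them. Npas2 fell in bleomycin by 1.72 ± 0.45 on the log2 scale (SE, adjusted p = 0.0164). The call was lost without control replicate 1 (-1.09, adjusted p = 0.0653), bleomycin replicate 1 (-1.72, adjusted p = 0.0585) or bleomycin replicate 2 (-1.63, adjusted p = 0.0649). Limma on log2(FPKM + 1) without a filter lost it as well (-0.92, adjusted p = 0.101). The LNP libraries lay above all 3 bleomycin libraries, with a log2 difference of 0.80 ± 0.44 that did not pass (adjusted p = 0.298). Against control the LNP difference was -0.93 ± 0.44 (adjusted p = 0.238), and it passed without control replicate 3, the lowest control for Npas2 (-1.33, adjusted p = 0.0457). That was 1 of 18 alternative fits, and without control replicate 1, the highest control, the difference was -0.29.

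Clock, the usual partner of BMAL1, was at 53.3, 17.0 and 47.5 CPM in control, 55.2, 51.3 and 46.8 CPM in bleomycin and 37.9, 35.1 and 32.6 CPM in LNP. Control replicate 2, the library with 526 genes low in this way, was far below the other control libraries. The LNP libraries lay below all bleomycin libraries and between the control libraries. The log2 difference was 0.38 ± 0.33 in bleomycin against control (adjusted p = 0.408), -0.54 ± 0.33 in LNP against bleomycin (adjusted p = 0.349) and -0.16 ± 0.33 in LNP against control (adjusted p = 0.819). Without control replicate 2 Clock was lower in LNP than in bleomycin (-0.54, adjusted p = 0.0347) and than in control (-0.52, adjusted p = 0.0442), and it differed by 0.02 between bleomycin and control (adjusted p = 0.936). Both passes came from this 1 of 18 alternative fits, which leaves out the control library farthest from the others for Clock. They are no separate support for a difference. Bmal1, the shared partner, was at 44.3, 24.2 and 12.6 CPM in control, 21.0, 19.8 and 15.6 CPM in bleomycin and 17.9, 20.0 and 17.9 CPM in LNP. Its control libraries spanned all the others, and it passed in no comparison (adjusted p = 0.286, 0.990 and 0.407 in the order above). Without control replicate 3, its lowest control, Bmal1 was lower in bleomycin than in control (-0.87, adjusted p = 0.0393). It passed in this 1 of 18 alternative fits, and without control replicate 1, its highest control, the difference was 0.0274.

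None of the 3 Per genes, which encode repressors, passed in any comparison of this fit. Per1, which is both a clock repressor and an early target of hormone signals, was at 72.5, 90.9 and 87.9 CPM in control and at 167, 172 and 167 CPM in bleomycin. Every bleomycin library was above every control library. In LNP it was at 65.5, 42.8 and 196 CPM, so replicates 1 and 2 lay below all control libraries and replicate 3 above all bleomycin libraries. The log2 difference was 1.01 ± 0.45 in bleomycin against control (adjusted p = 0.106), -0.74 ± 0.44 in LNP against bleomycin (adjusted p = 0.335) and 0.27 ± 0.44 in LNP against control (adjusted p = 0.760). The spread in this fit is shared by the 3 groups, and without LNP replicate 3 Per1 was higher in bleomycin than in control (1.05, adjusted p = 0.000555) and lower in LNP than in bleomycin (-1.64, adjusted p = 0.000317). Per1 was also called higher in bleomycin without LNP replicate 2 (1.01, adjusted p = 0.0426) and by DESeq2 (1.05, adjusted p = 0.0350). Of 18 alternative fits, 4 called Per1 higher in bleomycin than in control. The difference between LNP and bleomycin passed in 1 of 18, the fit that leaves out the highest LNP library for Per1.

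Per2, a core repressor whose loss disturbs the daily rhythm of mice, was at 19.0, 19.1 and 26.5 CPM in control, 24.1, 27.9 and 31.7 CPM in bleomycin and 8.68, 7.19 and 25.3 CPM in LNP. Control and bleomycin overlapped, and LNP replicates 1 and 2 were below all other libraries. The log2 difference was 0.37 ± 0.41 in bleomycin against control (adjusted p = 0.511), -1.02 ± 0.41 in LNP against bleomycin (adjusted p = 0.159) and -0.65 ± 0.41 in LNP against control (adjusted p = 0.378). Without LNP replicate 3 Per2 was lower in LNP than in bleomycin (-1.81, adjusted p = 0.000355) and than in control (-1.40, adjusted p = 0.00236). Both passes came from this 1 of 18 alternative fits, which leaves out the highest LNP library for Per2. They are therefore no separate support for a difference. Per3, a weaker member of the family, was at 12.7, 16.7 and 39.8 CPM in control, 12.6, 13.0 and 15.7 CPM in bleomycin and 12.3, 8.61 and 23.1 CPM in LNP. Its highest library was control replicate 3, and the groups overlapped in every comparison. The log2 differences were -0.74, 0.09 and -0.65 in the same order (SE 0.44 each), with adjusted p of 0.224, 0.930 and 0.414.

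The cryptochromes, which bind the CLOCK and BMAL1 pair directly, stood on opposite sides of control in bleomycin. Cry1 was at 26.4, 16.7 and 12.0 CPM in control, 44.7, 34.2 and 31.9 CPM in bleomycin and 10.1, 12.6 and 27.8 CPM in LNP. The bleomycin libraries were above all others. The log2 difference was 1.01 ± 0.39 in bleomycin against control (adjusted p = 0.0734) and -1.14 ± 0.39 in LNP against bleomycin (adjusted p = 0.111), and DESeq2 called both (adjusted p = 0.0193 and 0.0222). Without control replicate 1, its highest control, Cry1 was higher in bleomycin (1.36, adjusted p = 0.0484). Without control replicate 3, its lowest control, it did not pass (0.77, adjusted p = 0.213), and 4 of 18 alternative fits called it. Against control the LNP value differed by -0.13 ± 0.39 (adjusted p = 0.879). Cry2 was at 68.6, 82.1 and 81.5 CPM in control, 60.0, 55.6 and 53.4 CPM in bleomycin and 39.2, 33.3 and 73.6 CPM in LNP. Bleomycin libraries were all below control, and the log2 difference of -0.46 ± 0.26 did not pass (adjusted p = 0.194). Of 18 alternative fits, 2 called it, among them the fit of only the 2 groups compared (-0.42, adjusted p = 0.0216). Between LNP and the other groups Cry2 differed by -0.21 ± 0.26 from bleomycin (adjusted p = 0.660) and by -0.67 ± 0.26 from control (adjusted p = 0.147). Without LNP replicate 3 Cry1 was higher in bleomycin than in control (1.04, adjusted p = 0.00957) and lower in LNP than in bleomycin (-1.70, adjusted p = 0.00363). In that fit Cry2 was lower in bleomycin than in control (-0.42, adjusted p = 0.0157). It was also lower in LNP than in bleomycin (-0.63, adjusted p = 0.00801) and in control (-1.06, adjusted p = 0.00125). This fit leaves out the highest LNP library for Cry1 and Cry2. Of 18 alternative fits, 2 called Cry1 lower in LNP than in bleomycin. Both LNP differences of Cry2 passed in this 1 fit only.

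The REV-ERB pair was split. Nr1d1, which encodes REV-ERB alpha, the main repressor of Bmal1, was at 120, 364 and 432 CPM in control, 60.7, 68.8 and 74.0 CPM in bleomycin and 153, 120 and 144 CPM in LNP. All bleomycin libraries were below all control and all LNP libraries, and the LNP libraries lay near control replicate 1. Nr1d1 fell in bleomycin by 2.17 ± 0.38 on the log2 scale (adjusted p = 0.00257), and it was called lower in all 18 alternative fits, at log2 differences from -2.56 to -1.84. The LNP libraries were 1.03 ± 0.37 above bleomycin on the log2 scale (adjusted p = 0.121) and differed by -1.14 ± 0.37 from control (adjusted p = 0.0930). DESeq2 called both (adjusted p = 0.0368 and 0.0200), and so did edgeR without control replicate 1, the lowest control (1.03, adjusted p = 0.0196, and -1.52, adjusted p = 0.00567). Of 18 alternative fits, 3 called the difference from bleomycin and 2 the difference from control. Nr1d2, which encodes REV-ERB beta, was at 24.3, 19.6 and 76.2 CPM in control, 48.8, 43.4 and 40.6 CPM in bleomycin and 30.9, 24.0 and 36.3 CPM in LNP. The bleomycin libraries lay within the control range, and the log2 differences were 0.14, -0.54 and -0.40 in the order of comparisons above (SE 0.43 each; adjusted p = 0.820, 0.478 and 0.634). Without control replicate 3, its highest library, Nr1d2 was higher in bleomycin than in control (1.01, adjusted p = 0.0114). It passed in this 1 of 18 alternative fits, and without control replicate 2, its lowest library, the difference was -0.18 (adjusted p = 0.756).

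Dbp, the output factor that binds D-boxes, had the widest control values. It was at 10.2, 46.4 and 149 CPM in control, 7.24, 13.6 and 19.2 CPM in bleomycin and 33.1, 15.8 and 26.4 CPM in LNP. Control replicate 1 was inside the bleomycin range, so the groups overlapped. Dbp was called lower in bleomycin by 2.36 ± 0.77 on the log2 scale (adjusted p = 0.0406), with an interval from -4.09 to -0.63. The call was lost in 10 of 18 alternative fits. It was lost without control replicate 3 (-1.09, adjusted p = 0.222), without control replicate 2 (-2.58, adjusted p = 0.0602) and without any 1 bleomycin library (-2.06 to -2.72, adjusted p = 0.0628 to 0.137). The LNP difference was 0.91 ± 0.75 from bleomycin (adjusted p = 0.491) and -1.45 ± 0.75 from control (adjusted p = 0.279).

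The control libraries differed among themselves more than most genes do. The ratio of the highest to the lowest CPM within the control group was 14.7 for Dbp, 4.70 for Npas2, 3.88 for Nr1d2, 3.61 for Nr1d1, 3.13 for Clock and for Per3, 2.21 for Cry1, 1.39 for Per2, 1.25 for Per1 and 1.20 for Cry2. The median of the 10 genes was 3.13, beside 1.29 for the 12399 genes with a mean of at least 5 CPM, and 7 of the 10 reached 2-fold, as 7.24% of those genes did. In bleomycin the median was 1.23 for the clock genes and 1.19 for all genes, and 1 of the 10 (Dbp) reached 2-fold beside 3.98% of genes. In LNP the medians were 2.15 and 1.34, and 6 of the 10 reached 2-fold beside 14.4% of genes. The high and low libraries were not the same for all genes. Control replicate 3 was the highest control for Dbp, Nr1d1, Per2, Per3 and Nr1d2 and the lowest for Npas2, Bmal1 and Cry1, and control replicate 1 was the lowest for Dbp, Nr1d1, Per1, Per2, Per3 and Cry2 and the highest for Npas2, Clock, Bmal1 and Cry1. In LNP it was replicate 3 that was highest for Per1, Per2, Per3, Cry1, Cry2 and Nr1d2.

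**Figure D3:**
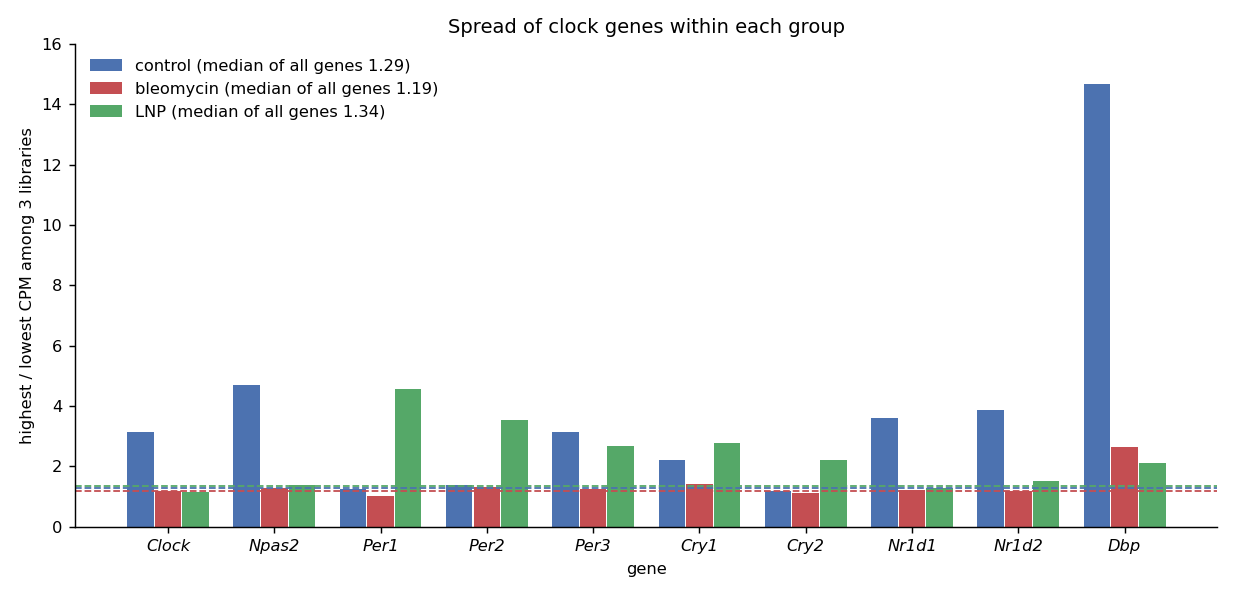
Highest over lowest CPM among the 3 libraries of each group for each clock gene (bars, linear axis from 0), with a dashed line at the median of all genes of that group (1.29 in control, 1.19 in bleomycin, 1.34 in LNP). The control bars exceed 3 for Clock, Npas2, Per3, Nr1d1, Nr1d2 and Dbp, and the LNP bars exceed 2 for Per1, Per2, Per3, Cry1, Cry2 and Dbp.

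Ratios of genes within a library do not depend on how libraries are scaled to each other, and they are given as a description. The log2 ratio of Dbp to Npas2 was -1.21, 1.88 and 4.90 among controls, 0.81, 1.92 and 2.03 among bleomycin libraries and 2.11, 0.96 and 2.18 in LNP. The control libraries thus spanned 6.11 log2 units and the other groups 1.22 each, with the bleomycin and LNP values inside the control range. The log2 ratio of Nr1d1 to Bmal1 was 1.43, 3.91 and 5.10 for controls, 1.53, 1.80 and 2.25 for bleomycin and 3.09, 2.58 and 3.00 for LNP, which left the bleomycin values within the control range and below the LNP values. Among the ratios not drawn, Nr1d1 to Npas2, Dbp to Bmal1, Per2 to Bmal1 and Dbp to Nr1d1 had all bleomycin values within the control range. Per2 to Npas2 was 2.55 to 2.95 in bleomycin, above control (-0.30 to 2.41) and LNP (-0.18 to 2.12). The ratios that follow were not in the first plan, and no share over other gene pairs was computed. Each set 1 group apart from control or from bleomycin. The log2 ratio of Npas2 to Bmal1 was -0.92, -0.93 and -1.34 for controls, -2.35, -2.45 and -1.73 for bleomycin and -1.23, -1.30 and -1.62 in LNP. The log2 ratio of Nr1d1 to Nr1d2 was 2.30, 4.21 and 2.50 for controls, 0.31, 0.66 and 0.87 for bleomycin and 2.30, 2.31 and 1.98 in LNP. For Cry1 to Cry2 it was -1.38, -2.29 and -2.77 for controls, -0.42, -0.70 and -0.74 for bleomycin and -1.96, -1.41 and -1.40 in LNP. In these last 3 ratios the bleomycin libraries lay outside the range of the control and LNP libraries. The log2 ratio of Per1 to Per2 was 1.93, 2.25 and 1.73 for controls, 2.80, 2.62 and 2.40 for bleomycin and 2.92, 2.57 and 2.95 in LNP, so control lay below both bleomycin and LNP, and LNP replicate 3 did not stand apart.

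**Figure D4:**
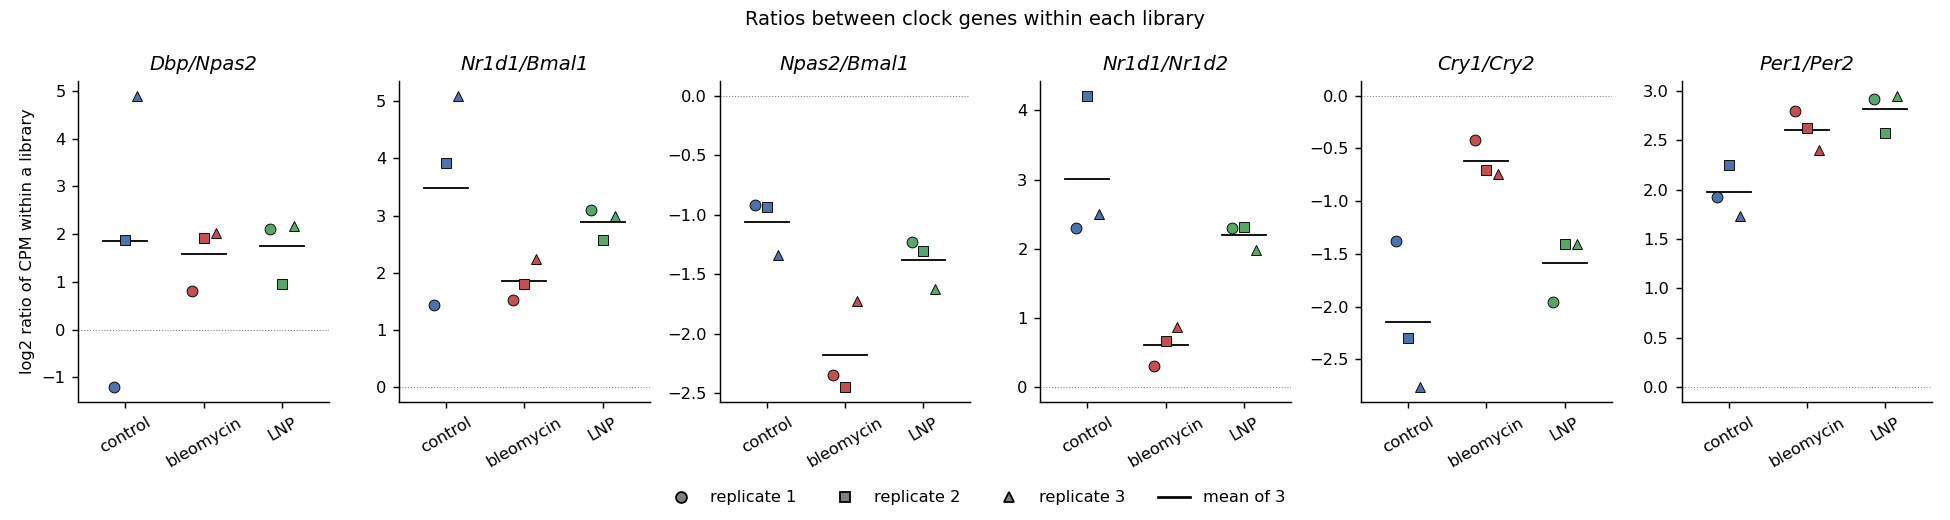
Log2 ratio of the CPM of gene pairs within each library, with 1 point per library and a bar at the mean of a group. The control libraries span 6.11 units for Dbp to Npas2, and the bleomycin libraries stand outside the others for Npas2 to Bmal1, Nr1d1 to Nr1d2 and Cry1 to Cry2.

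Of 19 other genes of the clock, 2 rose and 1 fell in bleomycin, beside 15.2% and 18.5% of all genes. Bhlhe40, which encodes the E-box repressor DEC1, was at 48.5, 66.2 and 83.9 CPM in control, 473, 319 and 231 CPM in bleomycin and 108, 134 and 242 CPM in LNP, and it rose in bleomycin by 2.36 ± 0.36 on the log2 scale (adjusted p = 0.00135). Nfil3, which encodes a repressor that competes with DBP at D-boxes, was at 20.5, 15.3 and 8.28 CPM in control, 136, 89.2 and 57.3 CPM in bleomycin and 14.2, 17.0 and 49.2 CPM in LNP, and it rose by 2.68 ± 0.54 (adjusted p = 0.00481). Btrc, which encodes a ubiquitin ligase subunit that acts on PER proteins, fell by 0.69 ± 0.18 (adjusted p = 0.0147). The call of Btrc was lost without bleomycin replicate 1 or 2. Among the other 16, which did not pass, were the kinases Csnk1d and Csnk1e, the receptor Rora and the Dbp relatives Tef and Hlf. None of the 19 passed in edgeR between LNP and bleomycin (4 at an unadjusted p under 0.05, 2 in DESeq2, 1 in limma) or between LNP and control (2, 2 and 1). Without LNP replicate 3 edgeR called Timeless higher and Csnk1e, Bhlhe40, Ciart and Nfil3 lower between LNP and bleomycin (5 of 19, beside 24.7% of all genes). In that fit Timeless was higher and Ciart lower between LNP and control (2 of 19, beside 10.9% of all genes). These counts are near the shares of all genes and are not a result about this list. The median log2 fold change of the 19 was 0.09, -0.24 and -0.15 in the 3 comparisons.

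Of 22 genes often found rhythmic in mouse tissues, 20 were tested, and in bleomycin 6 were higher and 5 lower, beside 15.2% and 18.5% of all genes. The 5 with the smallest p were Noct, Por, Sgk1, Coq10b and Mthfd1l. Noct, which encodes the rhythmic phosphatase nocturnin, was at 8.78, 6.77 and 9.14 CPM in control, 56.0, 37.0 and 23.9 CPM in bleomycin and 11.3, 14.5 and 15.3 CPM in LNP. Noct rose in bleomycin by 2.24 ± 0.29 (adjusted p = 0.000646) and was lower in LNP than in bleomycin (-1.51 ± 0.29, adjusted p = 0.0195). Por, the electron donor of cytochrome P450 enzymes, fell by 1.04 ± 0.18 in bleomycin (adjusted p = 0.00223) and was lower in LNP than in control (-0.97 ± 0.18, adjusted p = 0.00988). Sgk1 rose by 2.44 ± 0.43 (adjusted p = 0.00275), Coq10b by 0.97 ± 0.20 (adjusted p = 0.00528) and Mthfd1l by 1.50 ± 0.35 (adjusted p = 0.00934). With 1 library left out, the number lower in bleomycin was 1 to 6. Besides Noct, whose call was lost without bleomycin replicate 1 or 2 or LNP replicate 1 or 2, with the replicate block, in the fit of only the 2 groups and in unfiltered limma, no gene of the list passed between LNP and bleomycin in edgeR, and without LNP replicate 3 there were 12 lower and 2 higher (24.7% of all genes in either direction). Between LNP and control Por, Herpud1 and Zbtb16 were lower and none was higher, where 2 had an unadjusted p under 0.05 in that direction and DESeq2 and limma called 0, and 1 to 7 were lower with 1 library left out. The median log2 fold change was -0.12, -0.47 and -0.11.

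Genes that respond to glucocorticoids or to acute signals were counted as well, since Per1 is known to be induced by such signals. The glucocorticoid list shares Fkbp5, Tsc22d3, Zbtb16, Klf9, Sgk1 and Pdk4 with the rhythmic genes above. Sgk1, Fkbp5 and Zbtb16 were called in bleomycin in both, so these 2 lists are not separate observations. Of 16 glucocorticoid response genes, a list that holds Per1 itself, 9 rose and 1 (Zbtb16) fell in bleomycin (all genes 15.2% and 18.5%), and 0 rose and 2 fell (Dusp1 and Errfi1) between LNP and bleomycin, where 0 were higher at an unadjusted p under 0.05 or in DESeq2 or limma. Without LNP replicate 3 that count of lower genes was 15 (24.7% of all genes in either direction), and without control replicate 2 it was 1. Between LNP and control Mt1 and Mt2 were higher and Zbtb16 lower (all genes 4.95% and 3.08%). Without LNP replicate 3 there were 2 higher and 6 lower in that comparison, beside 10.9% of all genes in either direction. Their sum was 1573 to 1693 CPM in control and 4259 to 6446 CPM in bleomycin, led by Mt1 and Sgk1. Fkbp5, a glucocorticoid-induced chaperone, was at 47.9, 53.0 and 71.3 CPM in control, 337, 378 and 396 CPM in bleomycin and 41.9, 39.8 and 403 CPM in LNP. LNP replicate 3 was therefore above all bleomycin libraries for Fkbp5 and Per1 and within the control and bleomycin ranges for Per2, and LNP replicates 1 and 2 were below all control libraries for these 3 genes. Of the other glucocorticoid response genes, LNP replicate 3 was above all bleomycin libraries for Tsc22d3, Zbtb16 and Pdk4. It was below them all for Sgk1, Dusp1, Errfi1, Tat, Klf9 and Angptl4, and inside their range for the rest. Of 14 immediate early genes, led by Jund and Jun, 12 rose and 1 (Jun) fell in bleomycin (all genes 15.2% and 18.5%). Between LNP and bleomycin 7 fell (all genes 1.87%), and without LNP replicate 3 there were 11 (all genes 24.7% in either direction). Between LNP and control 4 of the 14 were higher (Egr2, Atf3, Fosb and Egr3) and Jun was lower (all genes 4.95% and 3.08%). Their sum was 1220 to 1548 CPM in control, 2028 to 2976 CPM in bleomycin and 1264 to 1580 CPM in LNP, where replicate 3 did not stand with bleomycin. The part of these signals in the values of Per1 and the other clock genes was not tested.

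**Figure D5:**
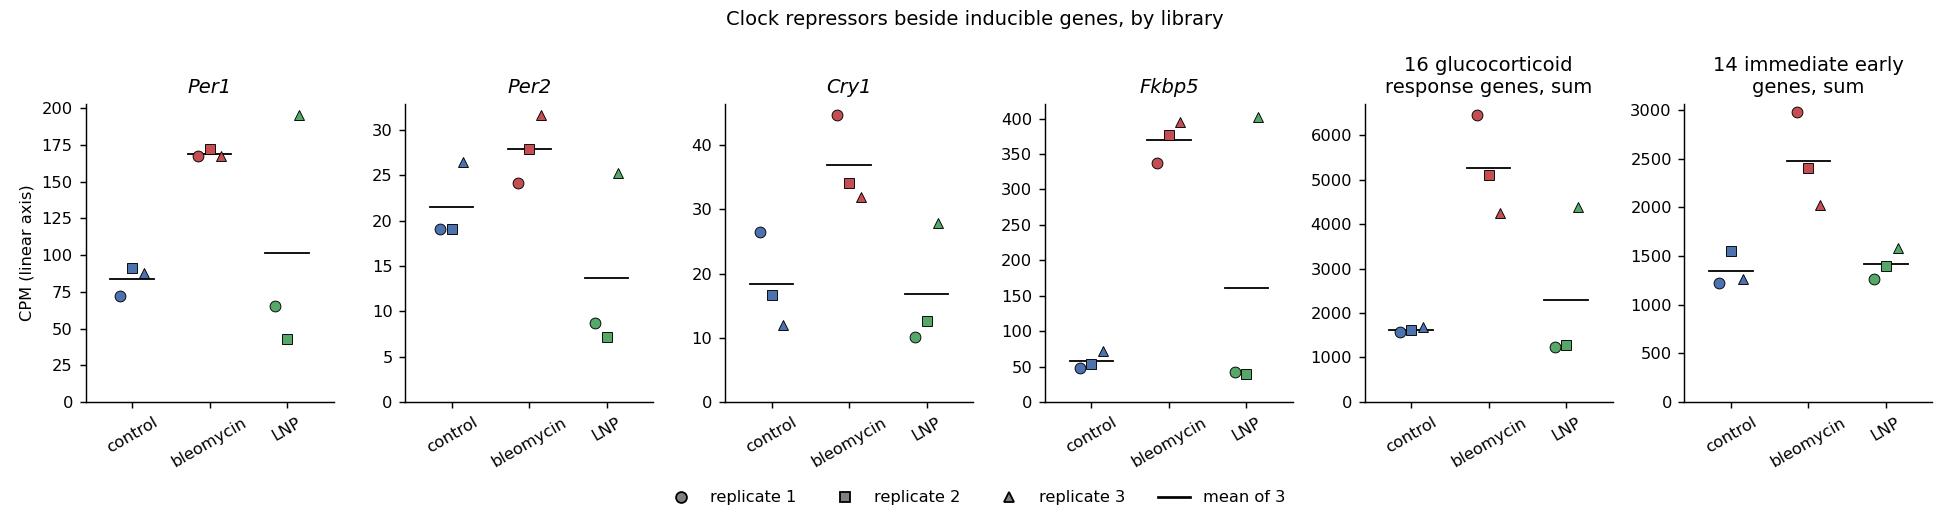
CPM on linear axes from 0 for Per1, Per2, Cry1 and Fkbp5 and for the sums of 16 glucocorticoid response genes (Per1 included) and 14 immediate early genes, with 1 point per library and a bar at the mean. LNP replicate 3 is at 196 CPM for Per1 and 403 CPM for Fkbp5, above all bleomycin libraries, and its immediate early sum of 1580 CPM is below them. Fkbp5 was chosen after its values were seen, and LNP replicate 3 lies below all bleomycin libraries for other genes of the same list.

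The cell makeup of the lungs differed between the groups as well, and in whole tissue a smaller share of a cell type cannot be told apart from less RNA per cell. The counts in bleomycin below stand beside 18.5% of all genes called lower and 15.2% called higher. The 10 club cell markers, led by Scgb1a1 and Cbr2, summed to 32757 to 41634 CPM in control, 8371 to 9291 CPM in bleomycin and 9952 to 17327 CPM in LNP, with 8 of 10 lower in bleomycin. All 10 ciliated cell markers, led by Tppp3 and Foxj1, were lower in bleomycin, and their sum was 836 to 1086, 227 to 273 and 345 to 616 CPM. Of 12 endothelial markers, led by Vwf and Pecam1, 9 were lower and 2 higher in bleomycin (sums of 6361 to 7528, 4406 to 4802 and 3130 to 5229 CPM). Of the 12 alveolar epithelial markers 7 were lower and 1 higher (sums of 28218 to 37468, 13155 to 15250 and 10567 to 27208 CPM), and of 10 resting fibroblast markers, led by Inmt and Limch1, 7 were lower (sums of 4104 to 5009, 1675 to 1970 and 1640 to 2117 CPM). Of 12 markers of monocyte-derived macrophages, led by Apoe and Spp1, 9 rose and 1 fell (sums of 1512 to 1969, 10153 to 10295 and 4630 to 11530 CPM). All 10 lymphocyte markers, led by Cd79a and Lck, were lower in bleomycin than in control and higher in LNP than in bleomycin, as 4.28% of all genes were (sums of 127 to 160, 17.1 to 18.1 and 128 to 145 CPM). Of 10 cardiac muscle markers, led by Myh6 and Actc1, 8 were lower in bleomycin (906 to 1304, 116 to 407 and 221 to 525 CPM), and of 9 adipocyte markers tested, led by Lpl and Cfd, 7 were lower and 1 higher (433 to 465, 773 to 846 and 315 to 645 CPM). The higher adipocyte sum in bleomycin came from Lpl, the 1 higher gene, at a mean of 179 CPM in control and 772 CPM in bleomycin. Cfd averaged 123 and 11.1 CPM, so this sum does not follow the 7 lower markers. LNP replicate 3 held the lowest LNP sum for the club, ciliated, endothelial, alveolar and resting fibroblast lists and the highest for the macrophage list. Its alveolar, endothelial and resting fibroblast sums lay below all bleomycin libraries and its macrophage sum above them, while its Per and Cry levels were the highest of the LNP libraries. No marker of these lists was at 0 in all 9 libraries. The part of cell makeup in the values of the clock genes was not tested.

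The genes whose pattern over the 9 libraries was most like that of Dbp and of Npas2 were ranked by the correlation of log2 CPM among 12399 genes, passing over unnamed gene models and pseudogenes for the 5 nearest. Nearest to Dbp were Zfp707 (Pearson r = 0.895), Cyp2a5 (0.886), Nr1d1 (0.885), Mrps25 (0.866) and Tmem218 (0.859), of which Cyp2a5 encodes a cytochrome P450 and Mrps25 a protein of the mitochondrial ribosome. Per3 ranked 36 (0.777) and Hlf 108 (0.724) in that order. Nearest to Npas2 were Ttyh3 (0.940), Hsp90ab1 (0.931), Pank2 (0.917), Ears2 (0.913) and Ahsa1 (0.912), of which Hsp90ab1 encodes a cytosolic HSP90 chaperone and Ahsa1 its cofactor. Bmal1 ranked 176 for Npas2 (0.795). The 9 points share 3 groups and their libraries, so these values describe the pattern and carry no test.

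Each clock gene was mainly 1 transcript in the deposited transcript counts. The leading transcript held 97.0% to 100% of the counts of Per2, Per3, Cry1, Cry2, Npas2, Nr1d1 and Nr1d2, 89.0% for Per1, 85.9% for Clock and 82.6% for Dbp. The assignment varied between libraries of a group. For Per1 the transcript ENSMUST00000102605 held 31.3% in bleomycin replicate 1 and 17.3% in control replicate 2, and was listed at 0 in the other 7 libraries. For Clock the leading transcript ENSMUST00000202651 held 62.7% to 100% by library. In the coordinates of the table, whose build was not stated, Dbp (chromosome 7, 45354512 to 45359627, plus strand) overlaps Sphk2 on the other strand, which was at 41.1 to 64.0 CPM. The libraries mark the strand, but whether the counting used it is not given, so reads of Dbp and Sphk2 cannot be told apart on that account. Sphk2 varied 1.27-fold within control, where Dbp varied 14.7-fold.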

How the data were processed

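Per the labels' protocols, paired-end poly(A) libraries that mark the strand were sequenced on an Illumina NovaSeq X Plus. Tools credited to the submitters' processing notes are fastp, StringTie and edgeR, with no versions; neither the aligner and build nor the counting settings were stated there. The authors deposited raw counts for genes and for transcripts as whole numbers. They also deposited FPKM for genes, as the file headers name it. From the counts, CPM on TMM-scaled library sizes and edgeR 4.0.16 quasi-likelihood F tests (R 4.3.3, filterByExpr, 1 fit over 9 libraries in 3 groups, Benjamini-Hochberg adjustment over 20794 genes) were computed. The SE is the log2 fold change divided by the square root of F, and intervals are at 95%. The fits were tested on simulated data, with changes planted in genes drawn from all genes tested. There edgeR recovered 21% to 23% of the 2-fold and 59% to 67% of the 4-fold changes. A gene that did not pass is therefore not shown to be unchanged. Alternatives were DESeq2 1.42.0, other scalings and filters, a fit of only the 2 groups compared, a replicate block, limma 3.58.1 on log2(FPKM + 1) and log2(FPKM + 0.1) with a mean FPKM of at least 0.5 or no filter, and each library left out. The libraries held 56047830 to 69404903 counts, and counting error was not separated from the spread between libraries. The clock genes and the gene lists were chosen with earlier results of these data known. Named were all 10 clock genes, Bmal1, the called genes of the other lists (the 5 with the smallest p where more were called), the 2 most abundant markers of each marker list and the 5 genes most like Dbp and Npas2. Fkbp5, Tef, Hlf, Sphk2 and other genes named outside this rule were chosen after their values were seen.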

Additional observations from a re-analysis of the deposited data

How the results depend on the processing

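The 10 clock genes, Bmal1 and the counts of clock, other clock, rhythmic and all genes called were recomputed under 18 alternatives; the glucocorticoid and immediate early counts under 5 other rules, and the marker lists, ratios, spreads, likeness and transcript shares under none. Nr1d1 kept its call in bleomycin against control in all 18, Npas2 in 14 and Dbp in 8. Of 33 gene results (11 genes including Bmal1, in 3 comparisons), 9 kept direction and side of the threshold under every alternative, and the cause of the other changes was not tested. Between bleomycin and control, DESeq2 and the fit of only the 2 groups compared each called 2 clock genes higher, and limma on log2(FPKM + 1) without a filter called 1 lower. The fit of only these 2 groups also called Cry2 lower. Between LNP and bleomycin, DESeq2 called 1 higher and 1 lower and the 2-group fit 1 higher, and between LNP and control DESeq2 called 1 lower. Leaving out 1 library at a time, 0 to 2 were called higher and 1 to 4 lower in bleomycin against control, 0 to 1 and 0 to 4 in LNP against bleomycin, and 0 to 2 lower in LNP against control. The genes called numbered 4375 to 9102 (7002 with all libraries), 102 to 5284 (1280) and 717 to 2332 (1671) in those comparisons. The high values came without LNP replicate 3 and the lowest without bleomycin replicate 2, bleomycin replicate 2 and control replicate 1. Between LNP and bleomycin, DESeq2 called 3011 genes, no filter 794, the 2-group fit 318 and unfiltered limma on log2(FPKM + 1) 539, and between LNP and control DESeq2 called 2937 and the 2-group fit 1010.

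No pairing by replicate number was seen over all genes: the deviations of 9 same-numbered pairs correlated at -0.0176 to 0.0400. Pairs with different numbers stood at -0.0737 to 0.0787. A pairing in a few genes alone would not show in these values. With the replicate block, Nr1d1 and Npas2 stayed called in bleomycin, Dbp did not (adjusted p = 0.0589), 432 genes (Noct not among them) were called between LNP and bleomycin, and the log2 differences between LNP and bleomycin were -0.0450 for Per3 (adjusted p = 0.944) and 0.0240 for Bmal1 (adjusted p = 0.973), which reversed both.

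Other reversals were of differences that did not pass. Bmal1 between LNP and bleomycin was 0.12 by library size only, 0.0801 by limma on log2(FPKM + 1) with or without a filter and 0.11 on log2(FPKM + 0.1), and -0.13 to 0.0770 with 1 library left out. Clock between LNP and control was 0.0412 by limma on log2(FPKM + 0.1). With 1 library left out, the ranges that crossed 0 were -0.18 to 1.01 for Nr1d2 and -0.87 to 0.0274 for Bmal1 in bleomycin against control, -0.40 to 0.36 for Per3 in LNP against bleomycin, and, in LNP against control, -0.59 to 0.64 for Per1, -0.66 to 0.23 for Cry1, -0.52 to 0.12 for Clock, -0.72 to 0.47 for Nr1d2 and -0.88 to 0.0180 for Bmal1.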
